A study of Mus musculus with 19 samples.

Results

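The glycolysis genes examined here were 10 genes that carry glucose from the medium to lactate: the glucose transporter Slc2a1, the hexokinases Hk1 and Hk2, and Pfkp, Aldoa, Gapdh, Pgk1, Eno1, Pkm and Ldha. They were chosen by name, with earlier results of these data known. The Ensembl gene identifiers of the deposited counts were matched to mouse symbols, which found all 10 among 55487 genes. Their mRNA was followed in hepatic stellate cells (HSCs) of healthy, untreated male Balb/c mice of 23 to 24 weeks, sorted by the ultraviolet fluorescence of their vitamin A. Freshly isolated HSCs (0 h, 2 samples) were compared with HSCs plated on collagen in DMEM with 10% fetal bovine serum for 3, 6, 12, 18 or 96 h (3 samples each) or 24 h (2 samples). All samples shared strain, and each sample stood for 2 technical repeats. The 0 h cells were collected without culture. All cultured samples had the same medium, renewed after 3 h and 24 h, so that the age of the medium differed between timepoints. The cells grew in coated wells after the sort, so that the series describes activation in culture and not in a fibrotic liver.

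Glycolysis splits glucose into pyruvate in the cytosol, and lactate dehydrogenase turns pyruvate into lactate, which frees the NAD+ that the pathway needs. Several steps are run by isoenzymes from different genes, such as hexokinase 1, a housekeeping form, and hexokinase 2, a form that growth signals and low oxygen can induce. HSCs are quiescent in the healthy liver and turn into matrix-producing myofibroblasts upon injury or on a culture dish, and this activation has been linked to higher use of glucose by glycolysis. The transcription factors HIF1 (on the DNA core ACGTG or GCGTG) and Myc with Max (on the E-box CACGTG) are textbook activators of many of these genes.

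The total was between 2073171 and 7690892 counts per sample, with a median of 4954915, and 3 counts were taken as the lower limit of detection. This limit was 1.51 CPM (counts relative to the library total, scaled by the TMM method of edgeR) in the smallest sample, at 0 h, and this floor covers counting error only. The libraries read the 3′ end of each mRNA, so levels are compared between samples and not between genes. The samples carried the mRNA of HSCs, whose 10 listed markers (such as Lrat, Reln, Des and Pdgfrb) summed to 28907 to 33020 CPM at 0 h, 5042 to 5907 CPM at 12 h and 2750 to 3127 CPM at 96 h. All 10 were called lower at 12 h and 9 at 96 h (adjusted p below 0.1 and more than 2-fold, edgeR). Of all genes tested, 17.7% and 10.9% were called there in either direction. At 96 h, 1 of the 10 markers was at 0 in all samples. The 10 hepatocyte markers summed to 4072 to 8349 CPM at 0 h and 43.3 to 119 CPM at 96 h. The 10 markers of Kupffer cells and leukocytes went from 413 to 416 CPM at 0 h to 23.3 to 46.8 CPM at 96 h, with 7 of them at 0 in all 3 samples. Those of sinusoidal endothelial cells summed to 1012 to 1416 CPM at 0 h, 1673 to 3962 CPM at 3 h and 57.9 to 311 CPM at 96 h. Sample 1 had the highest endothelial sum at each cultured timepoint, such as 3962 CPM at 3 h against 1673 and 1765 CPM. The 0 h group held no sample 1. The 6 erythrocyte markers summed to 162 to 353 CPM at 0 h and were all at 0 at 12, 24 and 96 h, and the 5 cholangiocyte markers summed to 4.52 to 5.52 CPM at 0 h. The part of these shifts in the glycolysis results was not tested. In bulk RNA, fewer cells of a type and less RNA per cell cannot be told apart.

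The promoters of 4 genes are shown because their mRNAs moved early: Slc2a1, Hk2 and Pgk1 were higher at 6 h, and Ldha was lower. Each sequence is the 250 bases before the RefSeq start site (GRCm38.p6), with every ACGTG and GCGTG on either strand in capitals.
Slc2a1 promoter, chr4:119108495-119108744, plus strand: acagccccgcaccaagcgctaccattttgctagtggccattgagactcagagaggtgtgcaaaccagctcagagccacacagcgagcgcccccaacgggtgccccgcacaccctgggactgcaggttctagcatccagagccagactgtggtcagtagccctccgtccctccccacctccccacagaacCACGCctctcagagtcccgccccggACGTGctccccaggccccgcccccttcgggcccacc
Hk2 promoter, chr6:82774455-82774704, minus strand: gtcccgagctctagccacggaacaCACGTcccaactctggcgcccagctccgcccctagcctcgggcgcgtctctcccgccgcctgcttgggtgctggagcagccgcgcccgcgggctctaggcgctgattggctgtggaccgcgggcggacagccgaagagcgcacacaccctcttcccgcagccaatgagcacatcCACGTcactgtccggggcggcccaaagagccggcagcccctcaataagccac
Pgk1 promoter, chrX:106186850-106187099, plus strand: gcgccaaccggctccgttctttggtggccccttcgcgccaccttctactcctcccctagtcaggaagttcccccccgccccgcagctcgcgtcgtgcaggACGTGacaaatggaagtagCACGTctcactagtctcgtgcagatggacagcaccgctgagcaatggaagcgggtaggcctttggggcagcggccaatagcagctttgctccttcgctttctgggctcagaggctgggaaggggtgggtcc
Ldha promoter, chr7:46845554-46845803, plus strand: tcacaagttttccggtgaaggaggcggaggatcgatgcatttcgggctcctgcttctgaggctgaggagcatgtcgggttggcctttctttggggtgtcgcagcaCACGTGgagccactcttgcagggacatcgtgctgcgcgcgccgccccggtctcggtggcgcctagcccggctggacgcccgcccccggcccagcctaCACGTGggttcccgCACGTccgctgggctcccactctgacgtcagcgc
Of the 10 genes, 7 held ACGTG or GCGTG on either strand in such a window, against 38.6% of 32851 windows of the same length. The window farthest upstream was taken for the 5 genes with several start sites. ACGTG alone was in 16.6% and GCGTG in 28.2% of all windows. Ldha held 5 matches, 4 of which came from 2 copies of the palindrome CACGTG, read once on each strand, and this E-box was in 6.02% of all windows and in none of the other 9 genes. The windows of Hk1, Aldoa and Pkm held none of these letters. A match describes the sequence and is no evidence of binding.

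The 10 genes did not move as a block (plot of levels per sample). Slc2a1 and Hk2 climbed within 3 h and peaked at 12 h, Pgk1 climbed between 3 h and 12 h and stayed high, and Gapdh, Eno1, Pkm, Hk1 and Ldha were highest at 96 h. Aldoa changed by less than the fold limit, and Pfkp varied between samples of one timepoint without a trend. In one edgeR quasi-likelihood fit of the 19 samples, 9 of the 10 genes differed among the 7 timepoints (adjusted p below 0.1), against 27.4% of the 15138 genes tested, with Pfkp as the exception (adjusted p = 0.82). All 10 genes passed the filter on low counts, and the share over all genes was not matched for level.

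**Figure D1:**
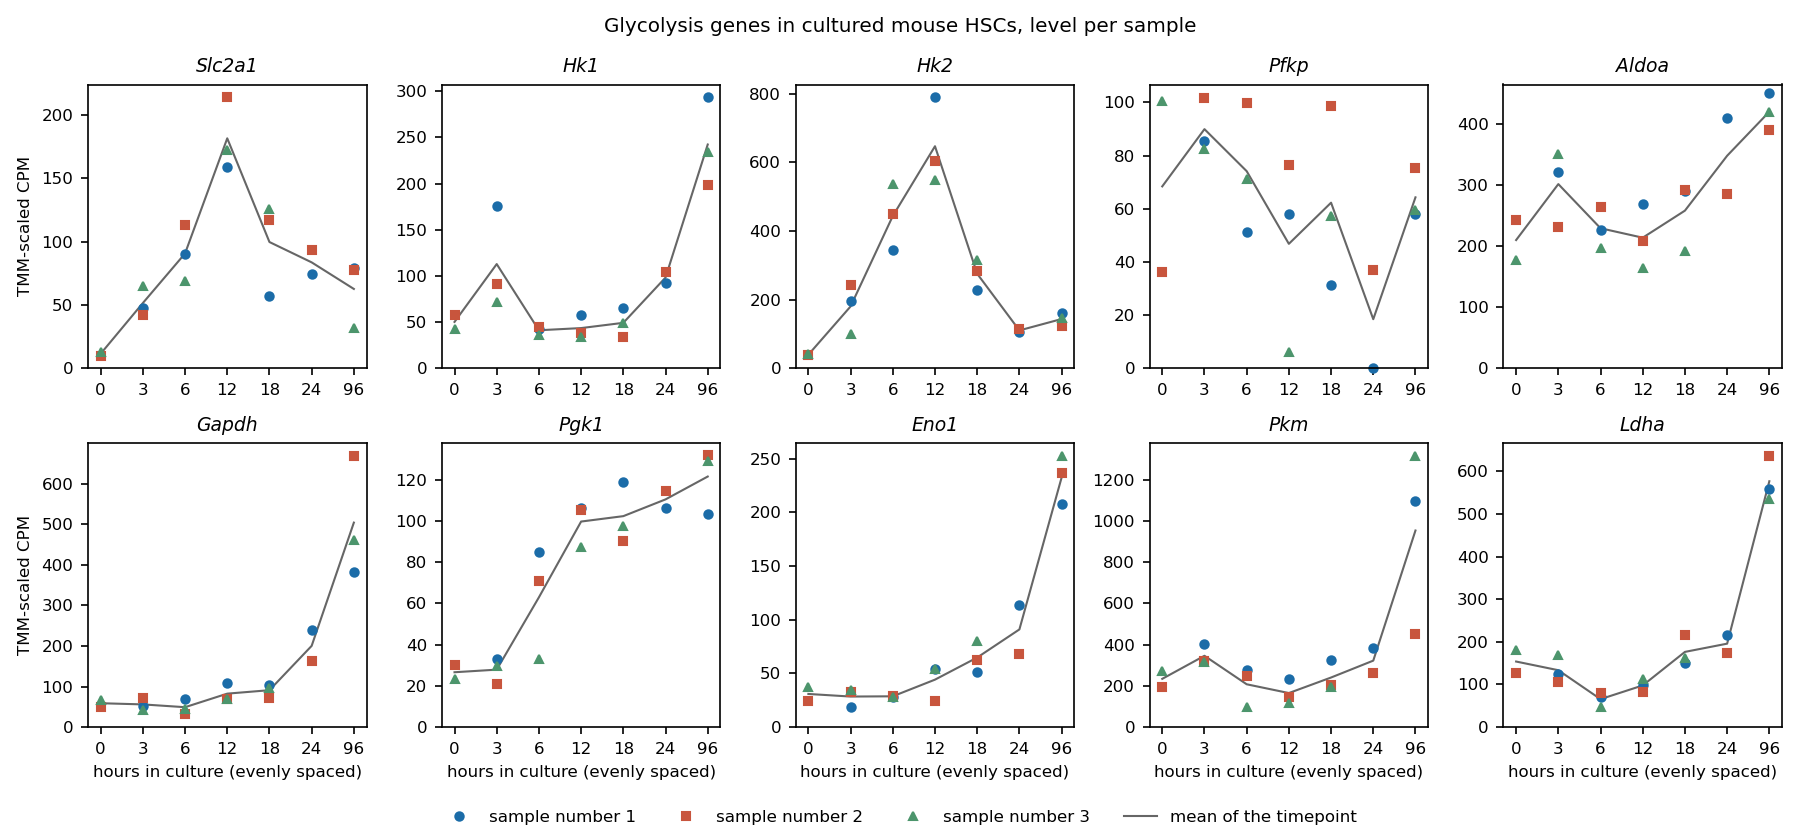
Level of each glycolysis gene (TMM-scaled CPM, linear axes from 0) in the 19 samples by hours in culture, with timepoints evenly spaced, symbols for the sample numbers of the labels and a line through the timepoint means. Slc2a1 and Hk2 peak at 12 h, Pgk1 reaches a plateau, and Gapdh, Eno1, Pkm and Ldha have their highest samples at 96 h.

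Slc2a1 encodes GLUT1, the transporter that lets glucose into the cell. It stood at 9.78 and 13.1 CPM in the 2 samples at 0 h, at 42.2, 47.4 and 64.7 CPM at 3 h and at 69.1, 89.9 and 113 CPM at 6 h. At 12 h its samples reached 158, 172 and 214 CPM, the highest of the series, and later samples lay between 31.7 and 125 CPM. No cultured sample overlapped with the 0 h samples, and the lowest at 12 h was above every sample of the other timepoints. Against 0 h, its log2 fold change was 2.18 ± 0.46 (SE) at 3 h (adjusted p = 0.0095), 4.0 ± 0.50 at 12 h (adjusted p = 3.6e-05) and 2.46 ± 0.46 at 96 h (adjusted p = 0.0023), and it was called at all 6 timepoints. From 12 h to 96 h it fell by 1.54 ± 0.37 on the log2 scale (adjusted p = 0.012). Without sample 2 at 0 h, the value at 3 h was 2.01 with an adjusted p of 0.14 and was no longer called.

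Hexokinases trap glucose in the cell as glucose 6-phosphate, and the 2 hexokinase genes moved in opposite directions from 3 h to 6 h and from 12 h to 96 h. Hk2 stood at 37.4 and 41.7 CPM at 0 h, rose to 101, 196 and 243 CPM at 3 h and to 345, 449 and 537 CPM at 6 h, and peaked at 548, 604 and 789 CPM at 12 h. It then went back to 227, 283 and 316 CPM at 18 h, 105 and 115 CPM at 24 h and 122, 146 and 162 CPM at 96 h. Every cultured sample lay above both 0 h samples, and every 12 h sample above those of the other timepoints. Its log2 fold change reached 2.19 ± 0.33 at 3 h (adjusted p = 0.00073) and 4.03 ± 0.36 at 12 h (adjusted p = 1.5e-06), a 16.4-fold difference. By 24 h it had declined to 1.48 ± 0.34 (adjusted p = 0.011), a call that was lost without sample 2 at 0 h (1.38, adjusted p = 0.12). Hk2 rose from 3 h to 6 h by 1.30 ± 0.27 (adjusted p = 0.012) and fell by 2.17 ± 0.28 from 12 h to 96 h (adjusted p = 7.1e-05).

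Hk1 was at 42.7 and 57.7 CPM at 0 h and at 71.9, 91.1 and 175 CPM at 3 h, then between 33.5 and 65.1 CPM in all samples from 6 h to 18 h. It was at 92.7 and 104 CPM at 24 h and at 199, 234 and 294 CPM at 96 h. The 96 h samples lay above all others, while those from 6 h to 18 h overlapped with 0 h. Against 0 h, Hk1 was called at 96 h only, with a log2 fold change of 2.27 ± 0.41 (adjusted p = 0.0018), and its value at 3 h did not pass (1.16 ± 0.39, adjusted p = 0.13). Without sample 3 at 3 h, the value at 3 h was 1.45 with an adjusted p of 0.058 and would have been called, as it was by DESeq2 (1.09, adjusted p = 0.069). With library-size scaling, Hk1 was also called at 24 h (1.25, adjusted p = 0.084). It fell by 1.45 ± 0.35 from 3 h to 6 h (adjusted p = 0.027) and rose by 2.48 ± 0.36 from 12 h to 96 h (adjusted p = 0.0002).

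The balance of both hexokinases was measured within each sample, as the log2 ratio of Hk2 to Hk1 counts (0.5 added to each count), which does not depend on how libraries are scaled. The mean log2 ratio started from -0.33 ± 0.42 (SD, n = 2) at 0 h and was 0.69 ± 0.65 (SD, n = 3) by 3 h, 3.41 ± 0.44 at 6 h and 3.91 ± 0.12 at 12 h. It went back to 2.52 ± 0.65 at 18 h, 0.17 ± 0.02 (SD, n = 2) at 24 h and finally -0.75 ± 0.10 (SD, n = 3) at 96 h. In counts, this was 0.648 and 0.976 Hk2 counts per Hk1 count at 0 h, 13.7, 15.6 and 16.03 at 12 h, and 0.552, 0.615 and 0.623 at 96 h. All samples at 6, 12 and 18 h were above all samples of the other timepoints (plot of the hexokinase ratio). The ratio differed among the 7 timepoints (permutation test of the F statistic with 100000 resamples, p = 2e-05, adjusted p = 0.00012 over 6 pairs of isoenzyme genes), and the adjusted p was between 6e-05 and 0.00018 with any 1 sample left out.

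**Figure D2:**
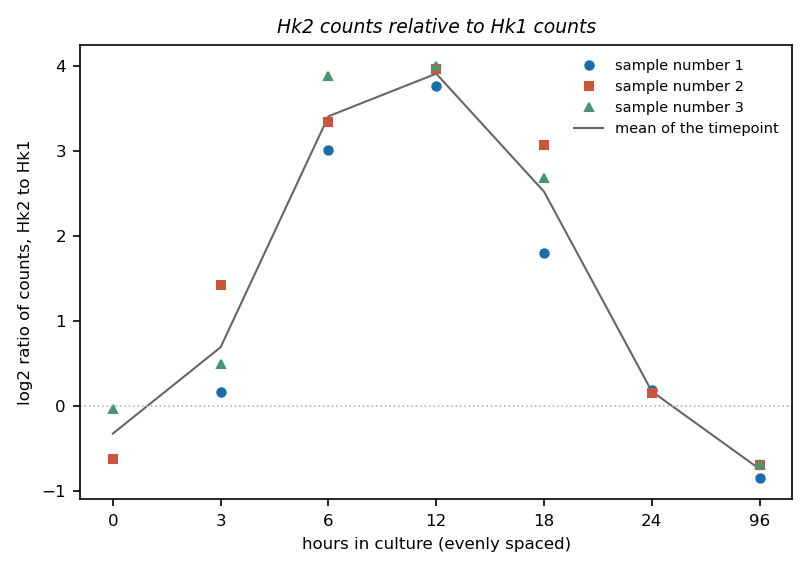
Log2 ratio of Hk2 to Hk1 counts in each of the 19 samples by hours in culture, evenly spaced, with symbols for the sample numbers and a line through the means; the dotted line marks equal counts. The 9 samples at 6, 12 and 18 h lie between 1.80 and 4.0, all above the other samples.

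Pfkp encodes the platelet form of phosphofructokinase, which catalyses the committed step of glycolysis. Its level was 36.4 and 100.4 CPM at 0 h, 82.5 to 102 CPM at 3 h, 51.3 to 99.8 CPM at 6 h and 57.9 to 75.3 CPM at 96 h. Single samples fell out of their group: sample 3 at 12 h was at 6.14 CPM against 57.9 and 76.3 CPM, and sample 1 at 24 h had 0 counts against 287 in sample 2. All 6 timepoints overlapped with 0 h, and none of the 6 comparisons with 0 h was called, with SEs between 1.13 and 1.30 on the log2 scale. Only with sample 2 at 24 h left out, which leaves the sample with 0 counts, was Pfkp called lower at 24 h (adjusted p = 0.0042). At such errors, changes of a few fold were not detectable for this gene.

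Aldoa, which encodes the aldolase that splits fructose 1,6-bisphosphate, ranged from 177 to 243 CPM at 0 h and from 391 to 450 CPM at 96 h, without overlap. Between 3 h and 18 h its samples lay at 164 to 351 CPM and overlapped with 0 h at each timepoint. At 96 h its log2 fold change was 1.00 ± 0.28 (adjusted p = 0.031), which came to a 1.9996-fold difference and missed the fold limit of 2, and it was called with 8 of the 19 samples left out singly. With library-size scaling it was called at 96 h (1.16, adjusted p = 0.013) and at 24 h (1.01, adjusted p = 0.042). The symbol stood on 2 identifiers, of which 1 had counts.

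Gapdh, the dehydrogenase that makes the NADH of the pathway and a common reference gene, was not constant. It was at 49.9 and 67.8 CPM at 0 h, 33.2 to 72.9 CPM at 3 h and 6 h, 68.7 to 109 CPM at 12 h and 18 h, 162 and 239 CPM at 24 h, and 383, 461 and 668 CPM at 96 h. The 24 h samples were above all earlier ones, and the 96 h samples above those of 24 h. Its log2 fold change was 1.77 ± 0.40 at 24 h (adjusted p = 0.00945) and 3.10 ± 0.40 at 96 h (adjusted p = 8.2e-05), an 8.58-fold difference, and the step from 24 h to 96 h was 1.33 ± 0.37 (adjusted p = 0.08). Without sample 2 at 0 h, the value at 24 h was 1.54 with an adjusted p of 0.12. Of the 100-base windows in the last 500 bases of its transcripts, 76.8% also occur in 63 other genes, whose counts could be split with it. Those in the count table held 2457 counts against 14312 for Gapdh, and when they were added, which was tried after the data had been seen, the value at 96 h was again 3.10.

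Pgk1, the kinase that makes the first ATP of the pathway, moved between the early and the late genes. It was at 23.1 and 30.1 CPM at 0 h and at 21.1 to 32.8 CPM at 3 h, and from 12 h on all samples lay between 87.5 and 132 CPM. At 6 h, samples 1 and 2 were at 85.1 and 70.8 CPM, whereas sample 3, at 32.9 CPM, was just above both 0 h samples. Its log2 fold change amounted to 1.24 ± 0.36 at 6 h (adjusted p = 0.042), 1.90 ± 0.37 at 12 h (adjusted p = 0.0022) and 2.19 ± 0.38 at 96 h (adjusted p = 0.0011). From 12 h to 96 h the difference was 0.29 ± 0.31 (adjusted p = 0.64), not larger than its error. The call at 6 h was lost when either 0 h sample was left out (adjusted p = 0.3 without sample 3 and 0.13 without sample 2) and when sample 1 or 2 at 6 h was left out (0.14 and 0.11). It was also lost without the filter on low counts (1.18, adjusted p = 0.14) and in a fit of both groups alone (1.35, adjusted p = 0.21).

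Eno1 encodes enolase 1, which makes phosphoenolpyruvate. It was at 24.1 and 37.7 CPM at 0 h and stayed between 18.6 and 54.4 CPM up to 12 h. It then reached 51.7, 62.6 and 80.1 CPM at 18 h, 68.3 and 114 CPM at 24 h and 208, 237 and 253 CPM at 96 h. The groups from 18 h on did not overlap with 0 h, and the 96 h samples were above all others. The log2 fold change was 1.07 ± 0.40 at 18 h (adjusted p = 0.098), 1.56 ± 0.43 at 24 h (adjusted p = 0.036) and 2.92 ± 0.44 at 96 h (adjusted p = 0.00032). The call at 18 h lay at the threshold and was lost with 16 of the 19 samples left out singly, either 0 h sample among them, while that at 24 h was lost without sample 2 at 0 h (1.25, adjusted p = 0.32) or without sample 1 at 24 h (1.15, adjusted p = 0.33). The 18 h call was lost with DESeq2 (0.84, adjusted p = 0.13), without the filter (1.02, adjusted p = 0.23) and with the isolation date as a covariate (1.05, adjusted p = 0.101), and both calls were lost in a fit of the compared groups alone (adjusted p = 0.20 and 0.13). Eno1b shares 48.4% of the 100-base windows at the end of Eno1 and took 5337 counts against 7215, so that reads of both genes may be split. With Eno1b added to Eno1, the value at 96 h was 2.96, and Eno1b alone gave 3.02 ± 0.44 (adjusted p = 0.00024).

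Pkm encodes the pyruvate kinase of most cells outside the liver parenchyma, in an M1 and an M2 splice form that counts per gene do not separate. It was at 194 and 274 CPM at 0 h, between 99.2 and 402 CPM from 3 h to 24 h, and at 450, 1094 and 1315 CPM at 96 h. The 96 h samples were above all others, with sample 2 well below the other two. Against 0 h, Pkm was called at 96 h only, with a log2 fold change of 2.03 ± 0.49 (adjusted p = 0.015), and against 12 h it was higher by 2.53 ± 0.43 (adjusted p = 0.00089). Without sample 2 at 0 h, the former was 1.79 with an adjusted p of 0.17.

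Ldha, the subunit of lactate dehydrogenase that favours lactate, fell first and rose later. It was at 128 and 180 CPM at 0 h, 105, 125 and 169 CPM at 3 h and 46.6, 70.6 and 79.5 CPM at 6 h. It returned to 83.4 to 112 CPM at 12 h, 151 to 216 CPM at 18 h and 175 and 217 CPM at 24 h, and it reached 536, 559 and 636 CPM at 96 h. The samples at 6 h and 12 h were below both 0 h samples, and those at 96 h above all others. Its log2 fold change was -1.23 ± 0.27 at 6 h (adjusted p = 0.0066) and 1.91 ± 0.29 at 96 h (adjusted p = 0.00035), and it was higher at 96 h than at 12 h by 2.56 ± 0.25 (adjusted p = 5.4e-06). Without sample 3 at 0 h, the value at 6 h was -0.99, short of the fold limit, and in a fit of both groups alone it did not pass (-1.13, adjusted p = 0.11).

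Counted against 0 h, 2 of the 10 genes were higher and none lower at 3 h, where 5.58% of all genes tested were called (adjusted p below 0.1 and more than 2-fold) and 4.19% were called higher. At 6 h, 3 were higher and 1 was lower, against 11.3% of all genes called, 6.98% higher and 4.35% lower. At 12 h 3 were higher, against 17.7% called and 8.6% higher, and at 18 h 4 were higher, against 15.9% and 7.64%. At 24 h, 5 were higher, against 9.51% and 5.65%, and at 96 h 8 were higher, against 10.9% called and 5.83% called higher. These shares cover genes of all levels and were not matched to the levels of the 10 genes. Calls depend on level: in simulated data, 54.2% of 4-fold changes were recovered at a mean of at least 50 CPM and 1.32% below it. The median log2 fold change of the 10 genes was 0.46 at 3 h, 0.01 at 6 h and 0.26 at 12 h. It then moved to 0.46 at 18 h, 1.22 at 24 h and 2.11 at 96 h, where the median of all genes was 0.07 at 96 h and 0 at the other timepoints. The 6 comparisons share the same 2 samples at 0 h, and the counts at 3 h (1 without sample 2), 6 h (2 without sample 3) and 24 h (2 without sample 2) depended on one or the other, whereas 8 or 9 were called at 96 h whichever sample was left out. All 26 called values had the same sign within both isolation dates that the labels give, each with 1 sample at 0 h. The calls came from these same samples, so the shared sign was no separate test of them. Together, the 10 genes took 0.0723% and 0.0919% of the counts at 0 h, 0.133% to 0.195% at 12 h and 0.313% to 0.360% at 96 h.

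**Figure D3:**
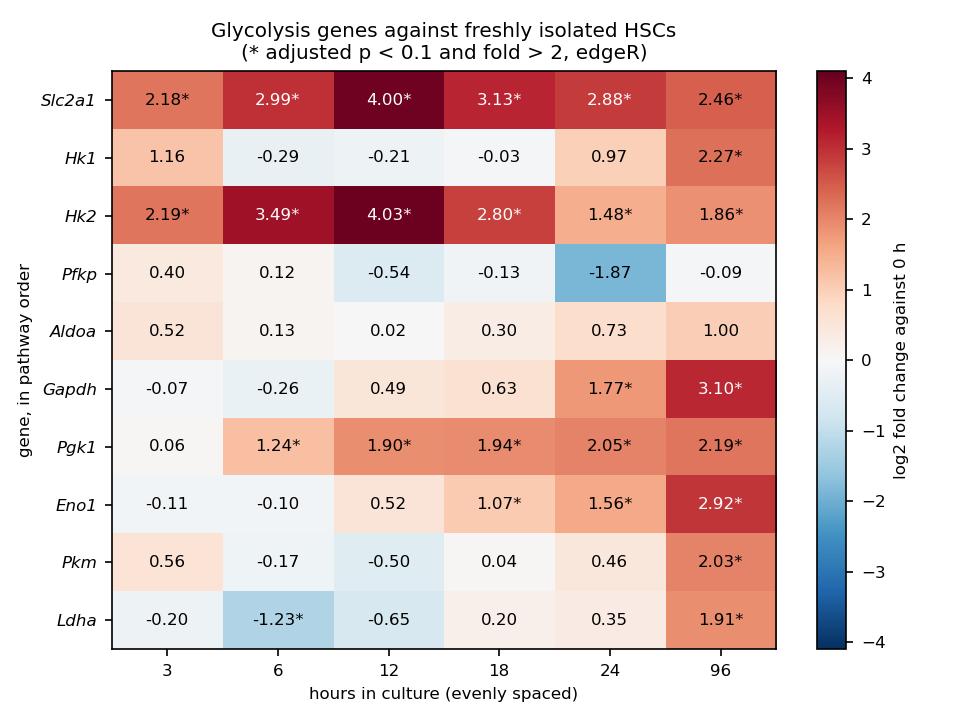
Log2 fold change against 0 h of the glycolysis genes, in pathway order from top to bottom, at 6 timepoints; red is higher, blue is lower, and asterisks mark adjusted p below 0.1 with more than a 2-fold difference. Calls spread from Slc2a1 and Hk2 at 3 h to 8 of the 10 genes at 96 h, and the value of Ldha at 6 h is the only one called lower.

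Steps within the culture do not have 0 h as their reference, but all 19 samples share the estimate of the spread. From 3 h to 6 h, Hk2 and Pgk1 rose and Hk1 and Ldha fell, 4 of 10 genes, against 4.49% of all genes called, 2.5% higher and 1.99% lower. For Pgk1 the step was 1.18 ± 0.31 (adjusted p = 0.049), and for Ldha it was -1.03 ± 0.24 (adjusted p = 0.027). The count was 1 without sample 3 at 3 h and 2 without sample 3 at 6 h. In edgeR, 0 of the 10 genes were called from 6 h to 12 h, from 12 h to 18 h and from 18 h to 24 h, where 1.84%, 0.225% and 0.0396% of all genes were called. At an unadjusted p below 0.05, these steps held 4, 3 and 3 of the 10 genes, and DESeq2 called 1 of them at each. The shares of all genes at that p and with DESeq2 were not taken for these steps. These counts therefore cannot be set against the shares called by edgeR. From 24 h to 96 h, Gapdh and Ldha rose, 2 of 10 against 2.72% of all genes called and 1.37% higher, with 1.56 ± 0.28 for Ldha (adjusted p = 0.0065). The count was 4 with the sample number as a block and 4 without sample 1 at 3 h, and 1 without sample 3 at 18 h, either 24 h sample or sample 3 at 96 h. Between 12 h and 96 h, Slc2a1 and Hk2 fell and Hk1, Gapdh, Eno1, Pkm and Ldha rose, 7 of 10 against 13.5% of all genes called, 6.96% higher and 6.57% lower.

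Across the 19 samples, levels of Hk1, Aldoa, Gapdh, Eno1, Pkm and Ldha followed each other, with Pearson's r of log2 CPM from 0.61 to 0.93 over their 15 pairs (plot of correlations). Gapdh and Eno1 were the closest pair (0.93), followed by Hk1 and Pkm (0.88) and Eno1 and Ldha (0.87). Slc2a1 and Hk2 formed the other pair, at 0.82, and their r with the former 6 genes ran from -0.49 to 0.09. Pgk1 followed neither group as a whole, with 0.60 to Slc2a1, 0.64 to Eno1 and 0.62 to Gapdh but 0.19 to 0.40 with Hk1, Hk2, Aldoa, Pkm and Ldha, and Pfkp was between -0.30 and 0.10 with the other 9 genes. These values describe samples that share timepoints and libraries, and the 96 h samples weigh in each of them.

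**Figure D4:**
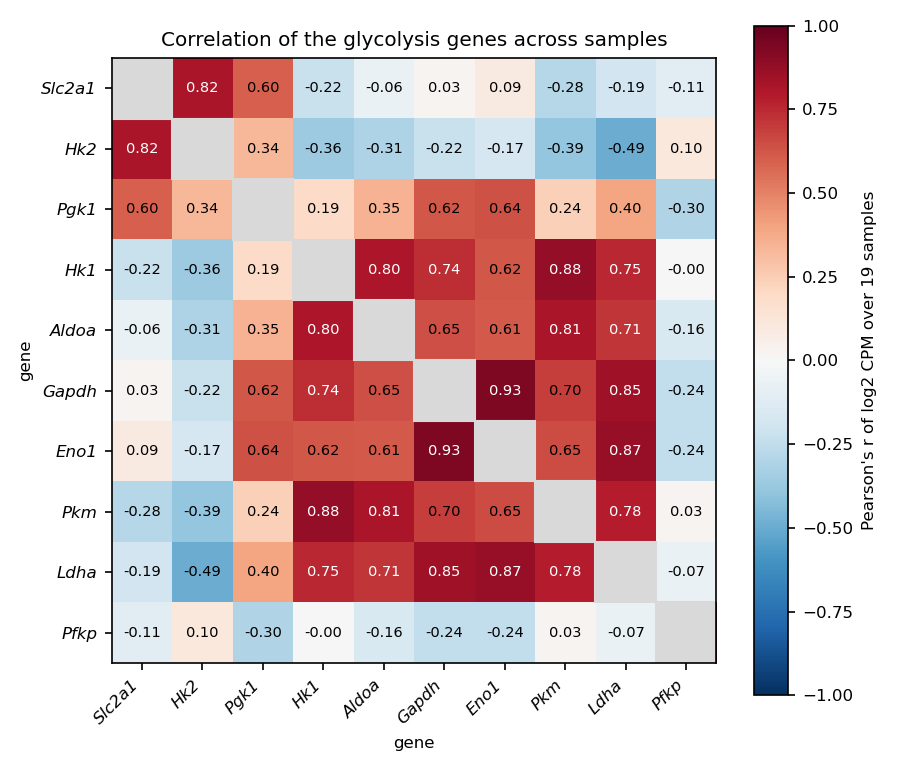
Pearson's r between the log2 CPM of each pair of glycolysis genes over the 19 samples, red for positive and blue for negative values. The 6 genes from Hk1 to Ldha form one block with r of at least 0.61, and Slc2a1 and Hk2 form another at 0.82.

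The 10 genes whose log2 CPM was most like the mean standardized level of the glycolysis genes were picked among 3856 genes that averaged 50 CPM or more. They were Inppl1 (r = 0.92), Cap1 (0.90), Blmh (0.90), Basp1 (0.89), Myl6 (0.88), Pgam1 (0.88), S100a11 (0.86), Rps20 (0.86), Hdgf (0.86) and Eno1b (0.86), over 19 samples. Pgam1, phosphoglycerate mutase, and Eno1b belong to the pathway. Reads of Eno1b may be split with those of Eno1, which is part of that mean, so its r is not independent of it. Only 3 of the 10 stayed with Spearman's rho in place of r.

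Of 32 other genes of glycolysis (other transporters, isoenzymes and regulators), 19 passed the filter. At 3 h 2 were higher, at 6 h 2 were higher and 1 lower, at 12 h 3 and 2, at 18 h 4 and 3, at 24 h 4 and 0, and at 96 h 5 and 1. From 3 h to 96 h, the share called was thus 10.5%, 15.8%, 26.3%, 36.8%, 21.1% and 31.6%, against 5.58%, 11.3%, 17.7%, 15.9%, 9.51% and 10.9% of all genes tested. Their median log2 fold change was 0.35 at 3 h, -1.30 at 12 h and 0.93 at 96 h, or 0.29, -1.30 and 0.90 with genes at 0 counts in one group set at their bound. Pfkfb3, the enzyme that makes the phosphofructokinase activator fructose 2,6-bisphosphate, was at 18.1 and 18.3 CPM at 0 h and at 159, 178 and 200 CPM at 3 h. It was called at all 6 timepoints, with its peak at 3 h (3.30 ± 0.29, adjusted p = 5.4e-06) and 87.0 to 117 CPM at 96 h (2.46 ± 0.28, adjusted p = 2.3e-05). Tigar, a phosphatase that lowers fructose 2,6-bisphosphate, had 0 counts in both 0 h samples and 11.8, 15.2 and 43.0 CPM at 96 h. The latter was at least 15.5-fold higher than the floor of 3 counts in the smaller 0 h sample, or 8.95-fold without sample 3 at 96 h. Tigar was called at all 6 timepoints. At 3 h its samples were at 0, 4.31 and 6.95 CPM, at least 2.49-fold higher, or 1.43-fold without sample 2. Later timepoints gave 3.20-fold or more with their highest sample left out.

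Isoenzyme genes of other tissues were low and uneven. Bpgm, which makes the 2,3-bisphosphoglycerate of erythrocytes, was at 21.1 and 21.6 CPM at 0 h and at 0 in all samples of 12 h and 18 h, at least 30.7-fold and 29.2-fold lower. The erythrocyte markers fell alongside and were all at 0 at 24 h and 96 h. Bpgm was at 0 and 16.9 CPM at 24 h and at 4.72, 6.31 and 16.2 CPM at 96 h. The part of erythrocytes in the Bpgm values was not tested. Pfkm, the muscle phosphofructokinase, was at 9.03 and 25.1 CPM at 0 h, 0, 0 and 0.183 CPM at 6 h and 9.82 to 13.5 CPM at 96 h, and it was called lower at 6 h (adjusted p = 0.028), where its samples were below the floor of 3 counts, and at 18 h, where it was at 0 and at least 23.3-fold lower (12.3-fold without sample 3 at 0 h). The ratio of Pfkp to Pfkm and that of Eno1 to Eno2 differed among the timepoints (permutation test, adjusted p = 0.026 each), both with partners at 0 counts in some samples, and the adjusted p of either rose above 0.05 with 8 of the 19 samples left out singly. The ratios of Pfkp to Pfkl (adjusted p = 0.51), Ldha to Ldhb (0.2) and Slc2a1 to Slc2a3 (0.75) did not pass the permutation test, and Aldoc had 0 counts in all samples.

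Eno2, Slc2a3, Pfkl and Ldhb were the partners in these pairs. Eno2, the neuronal enolase, had 0 counts at 0 h, 43.1, 43.3 and 53.9 CPM at 3 h, 11.7 to 24.9 CPM at 6 h and at most 10.4 CPM later. No overlap with 0 h was seen at 3 h, yet the test did not pass (adjusted p = 0.18). Slc2a3 was above 0 in 4 samples of the series, with 21.2 CPM as its highest value. Pfkl ranged from 0 to 75.3 CPM and Ldhb from 0 to 39.6 CPM, and Ldhb went from 4.52 and 39.6 CPM at 0 h to 0 in all 18 h samples, at least 30.2-fold lower (adjusted p = 0.055), or 6.18-fold without sample 2 at 0 h.

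Of 18 genes that handle pyruvate and lactate, 17 were tested, with 1 higher and 1 lower at 3 h, 2 and 2 at 6 h, 3 and 2 at 12 h, 2 and 1 at 18 h, 1 and 0 at 24 h, and 2 and 1 at 96 h. In all, 23.5% were called at 6 h (11.3% of all genes) and 29.4% at 12 h (17.7% of all genes), but 17.6% at 18 h and 5.88% at 24 h, where 15.9% and 9.51% of all genes were called. At 3 h and 96 h it was 11.8% and 17.6%, against 5.58% and 10.9%. Slc16a1, the lactate and pyruvate transporter MCT1, was at 2.01 and 2.51 CPM at 0 h, 49.1, 56.3 and 72.1 CPM at 12 h and 6.23 to 10.2 CPM at 96 h. All cultured samples were above 0 h, and it was called at all 6 timepoints with a maximum at 12 h (4.71 ± 0.64, adjusted p = 8.7e-05). Slc16a3, the lactate exporter MCT4, was at 0 at 0 h and at 14.9, 19.2 and 29.8 CPM at 96 h, at least 14.2-fold higher. Mpc2, a subunit of the mitochondrial pyruvate carrier, was at 70.8 and 110.1 CPM at 0 h and 15.5 to 29.2 CPM at 6 h (-2.11 ± 0.41, adjusted p = 0.003), and at 57.9 to 81.2 CPM at 96 h (-0.45, adjusted p = 0.58). Dld, a subunit of pyruvate dehydrogenase and related complexes, rose from 21.1 and 26.8 CPM to 82.5, 116 and 140 CPM at 12 h (2.23, adjusted p = 0.0036).

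In the pentose phosphate pathway, which branches off at glucose 6-phosphate, 8 of 9 genes were tested and 2 were higher at each timepoint from 6 h on, where 5.65% to 8.6% of all genes were called higher, with none lower at any timepoint. Pgd, which makes NADPH in the oxidative branch, was at 32.1 and 39.7 CPM at 0 h, 41.9 to 49.4 CPM at 3 h and 168, 172 and 177 CPM at 6 h (2.27, adjusted p = 3.1e-06). Taldo1, the transaldolase, was at 99.3 and 206 CPM at 0 h and at 1646 and 2004 CPM at 24 h (3.58, adjusted p = 7.8e-06). Both stayed above the 0 h samples up to 96 h. The median of the 8 genes was 0.36 at 6 h and went from 1.14 at 12 h to 1.07 by 96 h.

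Of 7 gluconeogenesis genes, 6 were tested, and their median was -1.98 at 3 h and -4.79 at 96 h, or -4.32 at 96 h with genes at 0 set at their bound. The summed hepatocyte markers also fell from 0 h to 96 h, and the part of hepatocytes in this median was not tested. At 3 h 1 was higher, at 6 h and 12 h 1 was higher and 1 lower, at 18 h 1 and 2, at 24 h none, and at 96 h 1 was lower, against 5.58% to 17.7% of all genes called. Pck1, the cytosolic enzyme, was at 25.6 and 208 CPM at 0 h and at 0 in all samples at 6, 18 and 96 h. It was at least 136-fold lower at 96 h, or 29.7-fold without sample 3 at 0 h. The part of hepatocytes in the Pck1 values was not tested. Pck2, the mitochondrial enzyme, went the other way, from 11.5 and 14.04 CPM at 0 h to 101, 123 and 123 CPM at 6 h (3.17, adjusted p = 0.00012), and was back at 11.5 to 21.8 CPM at 96 h.

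**Figure D5:**
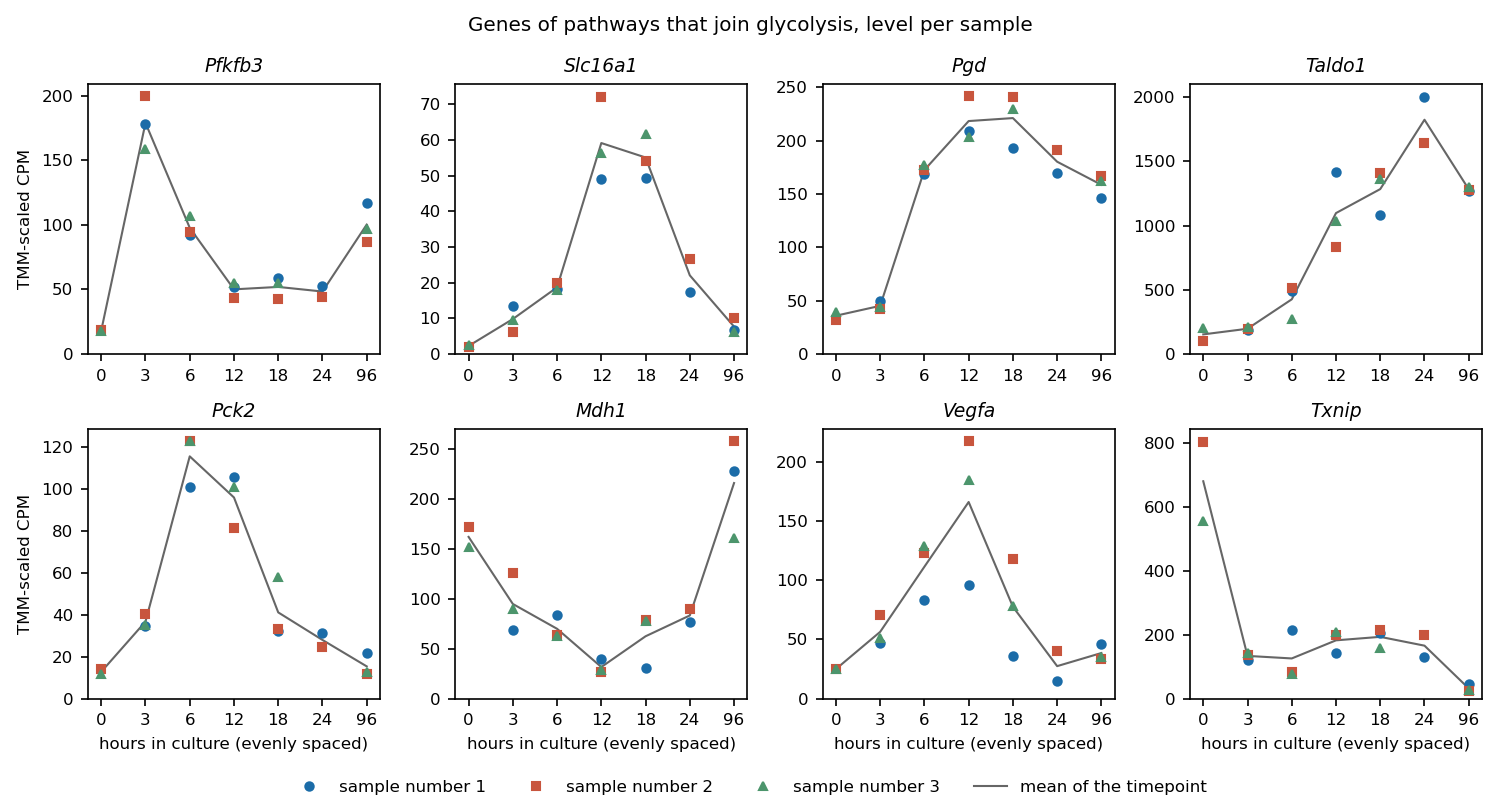
Level (TMM-scaled CPM, linear axes from 0) of 8 genes of pathways that join glycolysis, in 19 samples by hours in culture, evenly spaced, with symbols for sample numbers and a line through the means. Pfkfb3 is highest at 3 h, Pck2 at 6 h, Slc16a1 and Vegfa at 12 h and Taldo1 at 24 h, while Txnip has its highest samples at 0 h.

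Of 24 genes of the response to low oxygen and its regulators, 20 were tested, with 3 higher and 1 lower at 3 h, 5 and 2 at 6 h, 5 and 3 at 12 h, 4 and 3 at 18 h, 2 and 3 at 24 h and 3 and 2 at 96 h. Higher and lower together, this was 7 of 20 at 6 h and 8 of 20 at 12 h, beside 11.3% and 17.7% of all genes, and 5 of 20 at 96 h, beside 10.9%. At 3, 18 and 24 h it was 4, 7 and 5 of 20, beside 5.58%, 15.9% and 9.51%. The median of the list was 0.51 at 3 h, -0.22 at 12 h and 0.57 at 96 h. Vegfa, an angiogenic factor, was at 24.8 and 25.1 CPM at 0 h and at 96.1, 185 and 218 CPM at 12 h (2.73, adjusted p = 0.0027), with 33.7 to 46.5 CPM at 96 h. Adm, the vasodilator adrenomedullin, was at 0 and 54.7 CPM at 0 h and at 543, 612 and 999.99 CPM at 96 h (4.77, adjusted p = 0.012). Ddit4, an inhibitor of mTORC1, was at 0 and 61.4 CPM at 0 h and at 228, 290 and 367 CPM at 3 h (3.23, adjusted p = 0.072). Bnip3l, a mitophagy receptor, and Bhlhe40, a repressor, are targets that went down: Bnip3l from 131 and 134 CPM to 0.702, 11.4 and 16.6 CPM at 18 h (-3.80, adjusted p = 0.0051) and Bhlhe40 from 171 and 448 CPM to 12.5, 12.8 and 17.5 CPM (-4.44, adjusted p = 0.0049). Hif1an, which hydroxylates HIF1α and blocks its coactivators, was at 1.51 and 10.8 CPM at 0 h and 28.7 to 62.1 CPM at 3 h (2.76, adjusted p = 0.064). For Adm, Ddit4 and Hif1an, 1 of the 2 samples at 0 h was at 0 or at the floor of 3 counts. The sizes of their changes are therefore uncertain.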

How the data were processed

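RNASeq of the 3′ ends of mRNA (QuantSeq FWD) was measured in 19 samples of mouse HSCs. The authors deposited raw counts per gene, whole numbers without normalization. According to the methods of the study and the submitters' processing notes, single-end reads were mapped to GRCm38.p6 (mm10) with STAR and assembled with StringTie. The counting tool, its annotation and its strand setting are not given in the sources used here. No column was left out, and every row named a gene. Of 55487 identifiers, 55141 were matched to a symbol.

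Counts were filtered with filterByExpr and scaled by TMM in edgeR 4.0.16 (R 4.3.3), which left 15138 genes. One quasi-likelihood fit of all samples with timepoint as the only factor gave each log2 fold change with its SE and the p adjusted over all genes tested (Benjamini-Hochberg). A call needed an adjusted p below 0.1 together with more than a 2-fold difference. Log2 CPM used a prior count of 2. The biological coefficient of variation was 1.06. In the labels, samples 1 and 3 carry the same isolation date and sample 2 another. The 0 h group lacked sample 1, and the 24 h group lacked sample 3. Samples of one number thus share a date, and the number may pair them across timepoints. Their residuals correlated at 0.014 on average (51 pairs, at most 0.082), against -0.007 over 103 other pairs, and 15 of 19 samples were closest to one of their own number. The labels do not say whether a number is a single mouse, and if it is not, p-values measure only the spread between these samples. Isoenzyme ratios were tested with 100000 permutations of the timepoints. Promoters came from RefSeq, GRCm38.p6, and shared 100-base windows from the GENCODE transcripts of GRCm38. Python 3.11.15, numpy 2.4.6, pandas 2.3.3 and matplotlib 3.10.9 were used.

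All 10 glycolysis genes are named. From other lists, genes were named if called at 2 or more timepoints against 0 h with a mean of at least 10 CPM at one timepoint, up to 6 per list by their largest fold change, as were partners of isoenzyme pairs. One gene that met this rule is not reported here. The genes and lists were chosen with earlier results of these data known. Tested on simulated data for 96 h against 0 h with 14245 genes, the fit recovered 54.2% of 4-fold and 65.2% of 8-fold changes at a mean of at least 50 CPM, but 1.32% and 11.7% below it, with 2 false calls. Alternatives were scaling by library size, DESeq2 1.42.0, no filter, the sample number as a block, the isolation date as a covariate, a fit of only the groups compared, other thresholds, another pseudocount, added near-identical copies and each sample left out in turn.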

Additional observations from a re-analysis of the deposited data

How the results depend on the processing

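None of the 26 called values of the glycolysis genes against 0 h turned its sign under any alternative run. Small values that had not been called turned as follows. Scaling by library size gave 0.22 for Hk1 and 0.077 for Pfkp at 18 h and 0.042 for Pfkp at 96 h, and moved the median of all genes by up to 0.24 at 24 h. DESeq2 gave -0.030 for Pgk1 at 3 h, -0.12 for Pfkp and -0.11 for Aldoa at 6 h, -0.21 for Aldoa at 12 h, and -0.20 for Pkm and -0.037 for Ldha at 18 h. For Aldoa at 12 h and Pkm at 18 h, no filter gave -0.039 and -0.016, and the replicate block -0.076 and -0.18. The isolation date as a covariate gave -0.019 for Pfkp at 6 h and -0.010 for Pkm at 18 h.

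The number called from 24 h to 96 h was 1 with library sizes, without the filter or at an adjusted p below 0.05, 4 with the block and 5 with DESeq2, against 2. DESeq2 called 1 gene from 6 h to 12 h, 12 h to 18 h and 18 h to 24 h, and no filter 1 from 12 h to 18 h, against 0. For steps within the culture, shares of all genes under these alternatives were not taken. A fit of only the groups compared called 2, against 4, at 6 h against 0 h and against 3 h. A pseudocount of 5 moved the adjusted p of the Pfkp to Pfkm ratio to 0.087. With 1 sample left out, the numbers called ran from 1 to 3 at 3 h, 2 to 4 at 6 h and 2 to 6 at 24 h against 0 h, 1 to 4 from 3 h to 6 h, 0 to 1 from 12 h to 18 h and 1 to 4 from 24 h to 96 h. The adjusted p ran from 0.00027 to 0.066 for Pfkp to Pfkm, 0.011 to 0.063 for Eno1 to Eno2 and 0.0403 to 0.38 for Ldha to Ldhb.

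Log2 fold changes whose sign turned with 1 sample left out ran at 3 h from -0.12 to 1.30 (Pfkp), -0.27 to 0.15 (Gapdh), -0.12 to 0.30 (Pgk1), -0.37 to 0.23 (Eno1) and -0.39 to 0.055 (Ldha). At 6 h they ran from -0.43 to 1.00 (Pfkp), -0.11 to 0.37 (Aldoa), -0.40 to 0.22 (Eno1) and -0.43 to 0.16 (Pkm), and at 12 h from -0.47 to 0.024 (Hk1), -1.12 to 0.34 (Pfkp) and -0.21 to 0.27 (Aldoa). At 18 h they ran from -0.29 to 0.13 (Hk1), -0.75 to 0.73 (Pfkp), -0.26 to 0.26 (Pkm) and -0.092 to 0.42 (Ldha), and at 96 h from -0.65 to 0.81 (Pfkp). None of these had been called.

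With the number as a block, 4 genes were called from 24 h to 96 h, and the numbers called against 0 h were unchanged at all 6 timepoints. The isolation date as a covariate lost the call of Eno1 at 18 h (adjusted p = 0.101), which left 3 of 4 there, and library-size scaling called 7 genes at 24 h, against 5. Over all genes, that scaling called 1748 at 24 h, against 1440, and their median log2 fold change was 0.24, against 0. The gain was thus not particular to the glycolysis genes. The 0 h group held 2 samples, the smallest library among them, and genes near 1.51 CPM there cannot be told from 0.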

Other observations

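The citrate cycle genes, which oxidize what glycolysis delivers, gave 18 tested genes of 18, with 1 higher and 1 lower at 3 h, 1 and 6 at 6 h, 2 and 4 at 12 h, 1 and 3 at 18 h, 2 and 0 at 24 h, and 2 and 1 at 96 h. The share called was 11.1%, 38.9%, 33.3%, 22.2%, 11.1% and 16.7% in this order, against 5.58%, 11.3%, 17.7%, 15.9%, 9.51% and 10.9% of all genes. Their median log2 fold change was -0.87 at 6 h and 0.40 at 96 h. Suclg2, a subunit of succinate-CoA ligase, went from 117 and 122 CPM at 0 h to 6.53, 14.3 and 15.9 CPM at 6 h (edgeR, -3.28, adjusted p = 0.00067) and was still called lower at 96 h (-1.45, adjusted p = 0.099). Suclg1, its partner, was lower at 3 h (-1.33, adjusted p = 0.022) and at 6 h. Ogdh, of the 2-oxoglutarate dehydrogenase complex, was at 89.3 and 163 CPM at 0 h, 20.3 to 50.1 CPM at 6 h (-2.03, adjusted p = 0.005) and 130 to 176 CPM at 96 h. Mdh1, the cytosolic malate dehydrogenase, was at 152 and 172 CPM at 0 h, 26.3, 28.7 and 39.8 CPM at 12 h (-2.36, adjusted p = 0.00035) and 161 to 258 CPM at 96 h, so that no 12 h sample overlapped with either. Idh3a (1.86 at 12 h, adjusted p = 0.045) and Mdh2 (1.34 at 24 h, adjusted p = 0.021) were higher.

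Of 11 regulators of glycolysis genes, 9 were tested, and 3 were higher and 1 lower at 3 h, 3 and 2 at 6 h, 4 and 1 at 12 h and at 18 h, 2 and 1 at 24 h, and 1 and 2 at 96 h. This was 33.3% to 55.6% of the 9, where 5.58% to 17.7% of all genes were called. Myc was at 15.04 and 24.6 CPM at 0 h, 102, 438 and 608 CPM at 12 h (4.28, adjusted p = 0.0021) and 7.58 to 26.6 CPM at 96 h, and its partner Max was highest between 6 h and 18 h (1.16 at 6 h, adjusted p = 0.012). Txnip, an inhibitor of glucose uptake, was at 556 and 805 CPM at 0 h, 121, 138 and 142 CPM at 3 h (-2.35, adjusted p = 0.0018) and 23.9, 27.3 and 44.5 CPM at 96 h (-4.42, adjusted p = 4.1e-06), and it was called lower at all 6 timepoints. Its relative Arrdc4 was at 0 at 0 h and was called higher at all 6, with at least 14.6-fold over the floor at 18 h. Without the highest sample of the timepoint, this bound was 3.70-fold at 3 h, 7.72-fold at 6 h and 13.1-fold at 18 h. It was 0.857-fold at 12 h, below the floor, 1.11-fold at 24 h and 1.57-fold at 96 h. Trp53 was higher at 12 h (1.67, adjusted p = 0.021), 18 h and 24 h, and Klf4 was at 327 and 391 CPM at 0 h and 10.0 to 41.4 CPM at 96 h (-3.81, adjusted p = 5.9e-05).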
